A study of Arabidopsis thaliana with 8 samples.

Results

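Transcripts of roots were set against those of shoots in seedlings of Col-0, the standard laboratory strain of Arabidopsis thaliana, that had received 250 µM potassium nitrate for 20 min. The comparison takes the 4 of 8 arrays whose titles name nitrate: 2 of nitrate roots and 2 of nitrate shoots. The other 4 are of roots and of shoots given 250 µM potassium chloride (KCl), 2 of each, and enter where stated. Seedlings were wild type, 10 days old, and grown in shaken liquid culture under constant light. How many plants made a sample is not in the labels, nor is the origin of the 2 samples of a group, so the p-values rest on a spread between samples that may be technical only. All 22746 probe sets other than controls were tested.

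Nitrate that enters a root cell is stored in the vacuole, passed to the xylem or reduced, first to nitrite in the cytosol and then to ammonium in plastids. Reduction needs reducing power and its product needs carbon skeletons. In leaves both come largely from photosynthesis. In roots, which import sugar, reducing power comes from the oxidative pentose phosphate pathway and carbon from glycolysis and organic acid metabolism.

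The 2 organs differed widely. Of the 22746 probe sets, 4998 passed the test (22.0%; limma on log2(signal + 16), adjusted p under 0.05), 2333 of them higher in roots (10.3%) and 2665 lower in roots (11.7%). These are called higher and lower below. At least a 2-fold difference on that scale was reached by 1654 of the higher and 2158 of the lower ones, and at least 16-fold by 38 and 135. The 2 root arrays lay entirely above or below the 2 shoot arrays for 59.8% of all probe sets, so such a separation alone says little about a gene. The median difference over all probe sets was 0.01.

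**Figure D1:**
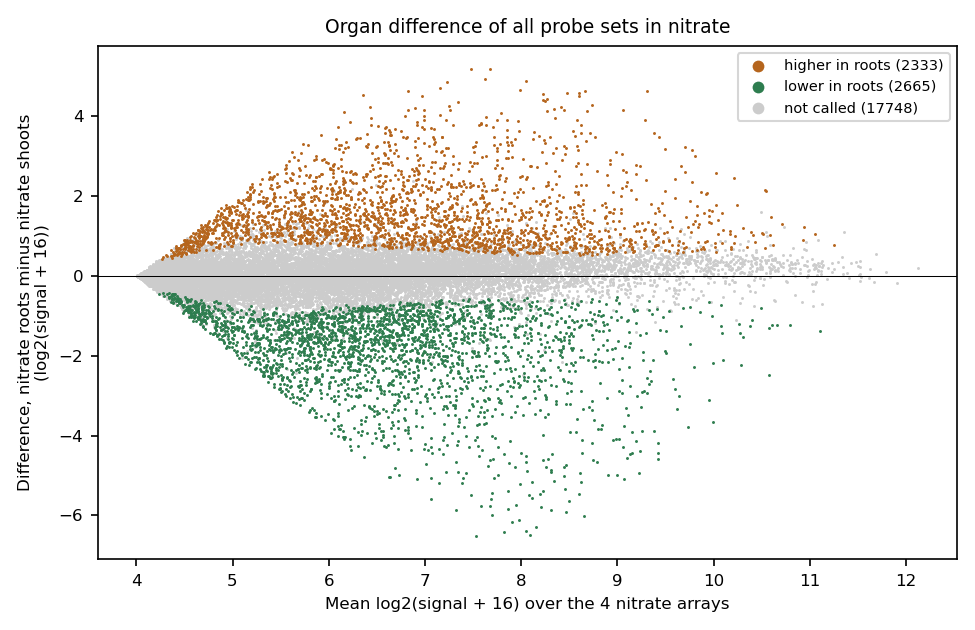
Difference between nitrate roots and nitrate shoots (log2(signal + 16), vertical axis) against the mean level over the 4 arrays (log2(signal + 16), horizontal axis), 1 point per probe set. The 2333 probe sets called higher in roots and the 2665 called lower lie at all levels, and the largest differences are on the shoot side.

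The arrays were not equally alike. Over all probe sets the log2 difference between the 2 arrays of a group had an SD of 0.30 in nitrate roots and of 0.45 in nitrate shoots, and median signals lay between 42.3 and 49.0. ICL, which encodes isocitrate lyase, the first enzyme of the glyoxylate shunt, had signals of 237 and 83.8 in nitrate roots, against 2572 and 111 in nitrate shoots, so the 2 shoot arrays stood far apart for it (log2 difference -1.85 ± 1.41 SE, limma adjusted p = 0.437). The first array was the higher one in both organs, and also in KCl roots (462 and 59.9) and KCl shoots (3049 and 63.2). Leaving out the first or the second root array lowered the count of calls to 2022 and 1991, whereas it was 5219 and 5046 without the first or the second shoot array. For the called genes named here, those that missed the threshold with an array left out are given in each paragraph. Called genes that are counted but not named were not followed in this way. For all 112 called probe sets of the gene lists below, both root arrays lay on the same side of both shoot arrays. The calls were made on these same arrays, so this separation adds no separate support for them. The same holds where such a separation is given for single called genes below. Since the samples are whole organs, fewer cells of a type and less RNA per cell cannot be told apart.

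The organ labels were checked against marker genes. All 4 measured shoot markers were lower in roots. RCA, which encodes Rubisco activase, had signals of 108 and 124 in nitrate roots, against 2953 and 2529.7 in nitrate shoots. The leaf identity gene YAB5 had signals of 1.1 and 4.72 in nitrate roots, against 85.2 and 85.9 in nitrate shoots. The summed signal of the 4 markers was 226 and 201 in nitrate roots, against 6399 and 5214 in nitrate shoots. Of 6 measured root markers 3 were higher in roots, the root hair expansins EXPA18 and EXPA7 and the endodermal receptor gene SGN3. Their sum over all 6 was 3846 and 4240.1 in nitrate roots, against 3104 and 2329 in nitrate shoots. PYK10, a beta-glucosidase gene among the 3 that did not pass, had signals of 3177 and 3502 in nitrate roots, against 2994 and 2220.4 in nitrate shoots (log2 difference 0.37 ± 0.25 SE, limma adjusted p = 0.378). No root or shoot marker was at 0 on any of the 4 arrays. YAB3 missed the threshold with 1 of the nitrate root arrays left out (limma, adjusted p of up to 0.0593).

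The largest differences over the whole array are given first. By a fixed rule (called, arrays not overlapping, mean signal above the 40th percentile of 32.9), the 10 largest differences on the root side ran from 4.27 to 5.18 on the log2 scale. They included 4 class III peroxidase genes, which act at the cell wall: AT3G01190, AT4G26010, AT3G49960 and AT1G30870. AT3G01190 had signals of 996 and 1126 in nitrate roots, against 28.0 and 3.96 in nitrate shoots (log2 difference 5.18 ± 0.38 SE, limma adjusted p = 0.00115). AT2G21045, encoding the arsenate reductase HAC1, had signals of 1707 and 1756 in nitrate roots, against 88.4 and 34.1 in nitrate shoots (log2 difference 4.6 ± 0.35 SE, limma adjusted p = 0.00127). AT3G13610, encoding F6'H1 of scopoletin synthesis, had signals of 1272 and 1461 in nitrate roots, against 81.0 and 27.5 in nitrate shoots (log2 difference 4.41 ± 0.39 SE, limma adjusted p = 0.00179). NPF2.5, described with the transporters, was the third largest. The other 3 were AT1G14960, AT5G04120 and AT5G23840, with log2 differences of 4.64, 4.57 and 4.37.

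On the shoot side the 10 largest ran from -6.51 to -5.06. LHCB4.2, of the light-harvesting antenna, had signals of 21.9 and 1.81 in nitrate roots, against 1709.7 and 1153 in nitrate shoots. PSAE-1, of photosystem I, had signals of 42.5 and 36.1 in nitrate roots, against 2631 and 1876 in nitrate shoots. CCL, a gene whose transcript follows the circadian clock, had signals of 17.1 and 13.7 in nitrate roots, against 1507 and 1216 in nitrate shoots. The mean root signal lay under 32.9 for all of these 10 genes except PSAE-1. Among the 10 of the root side, the mean shoot signal lay under it for AT3G01190, NPF2.5, AT3G49960, AT5G23840 and AT1G30870. At such signals the pseudocount of 16 makes the log2 differences smaller than the ratios of the signals. A pseudocount of 1 moved the log2 difference by over 1.5 times for 13 of the 113 called genes named here, and one of 64 did so for 29, with no sign changed and no call missed among these genes. AT3G49960 had a log2 difference of 7.53 with 1 and 2.77 with 64, against 4.53 with 16. HHO1, described with the regulators, had 2.54 with 1 and 0.48 with 64. The others were AT1G23130, AT1G09310, ECS1, AT2G10940, AT3G16530, AT5G38980 and PIFI. All 20 genes of both directions remained called under every alternative run.

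For genes of nitrogen, carbon and transport, and for the organ markers above, 19 lists with 550 genes were drawn up. Of these genes 114 had a probe set of their own in the gene table used here, and these are called measured. In roots 35 were higher, 30 were lower and 49 did not pass. Over all 13513 probe sets that match 1 gene, 9.12% were higher and 9.52% lower. The list counts include the 6 root markers (3 higher) and the 4 shoot markers (4 lower), which were picked to differ between organs. In the lists for ammonium assimilation, ammonium and amino acid transport, mineral ions, proton pumps and aquaporins, no gene had a named probe set. Nitrate reductase, nitrite reductase, NRT1.1 and NRT2.1 were not analysed here by name. The gene table names no gene for 8730 of the tested probe sets. Genes of these lists may be among them.

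Nitrate transport divided by gene. Of 7 measured genes of this list, 3 were higher in roots, 2 were lower and 2 did not pass. The median difference was 0.08, against 0.01 over all probe sets. AT4G24730, which did not pass, is counted here although its role in nitrate transport was not checked. The 3 higher ones belong to the NPF2 group of the NPF family, whose members carry nitrate, chloride, peptides or hormones. NPF2.5, a gene known for chloride efflux from roots, had signals of 477 and 637 in nitrate roots, against 12.5 and 2.08 in nitrate shoots. NPF2.4, known for loading chloride into the xylem, had signals of 111 and 159.6 in nitrate roots, against 11.9 and 16.1 in nitrate shoots. NPF2.3, a transporter of nitrate into the xylem, had signals of 155 and 114 in nitrate roots, against 19.5 and 24.7 in nitrate shoots. In all 3 every root array was far above both shoot arrays. The log2 differences were 4.64 ± 0.29 (SE, limma adjusted p = 0.000778) for NPF2.5, 2.32 ± 0.25 (SE, limma adjusted p = 0.00303) for NPF2.4 and 1.97 ± 0.23 (SE, limma adjusted p = 0.00381) for NPF2.3. Cross-hybridisation between close paralogs such as these was not tested.

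The 2 lower ones belong to the NPF6 group. NPF6.2 (NRT1.4), known for nitrate storage in the leaf petiole, had signals of 17.8 and 33.0 in nitrate roots, against 454 and 586 in nitrate shoots (log2 difference -3.71 ± 0.25 SE, limma adjusted p = 0.000899). NPF6.4 (NRT1.3) had signals of 63.4 and 37.3 in nitrate roots, against 207 and 183 in nitrate shoots (log2 difference -1.69 ± 0.24 SE, limma adjusted p = 0.00747). NRT2.5, a high-affinity nitrate transporter of nitrogen-starved plants, had signals of 188 and 51.7 in nitrate roots, against 174 and 48.6 in nitrate shoots (log2 difference 0.08 ± 0.70 SE, limma adjusted p = 0.956). The first array was the higher one in each organ, and also in KCl roots (160 and 131) and KCl shoots (102 and 32.6). AT4G24730, entered in this list and known here by its identifier only, had signals of 75.3 and 65.4 in nitrate roots, against 87.1 and 89.2 in nitrate shoots (log2 difference -0.27 ± 0.18 SE, limma adjusted p = 0.365). NPF2.3 missed the threshold with 1 of the nitrate root arrays left out (limma, adjusted p of up to 0.0539).

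The NPF family as a whole, a list added after the first results had been seen, had calls on both sides. Of 34 measured members 6 were higher in roots, 5 were lower and 23 did not pass. The shares over all probe sets of 1 gene were 9.12% higher and 9.52% lower. Besides the 3 above, NPF5.16 was higher with signals of 412 and 503 in nitrate roots, against 75.5 and 87.6 in nitrate shoots (log2 difference 2.28 ± 0.17 SE, limma adjusted p = 0.00121), and so were NPF5.13 (log2 difference 1.23 ± 0.21 SE, limma adjusted p = 0.0141) and NPF5.3 (log2 difference 0.95 ± 0.17 SE, limma adjusted p = 0.0162). NPF5.3 was of low signal in both organs (mean under 32.9). On the shoot side NPF6.1 had signals of 28.9 and 29.1 in nitrate roots, against 123 and 143 in nitrate shoots (log2 difference -1.73 ± 0.19 SE, limma adjusted p = 0.00328). NPF2.10 (GTR1), a glucosinolate importer, had signals of 95.2 and 104 in nitrate roots, against 241 and 302 in nitrate shoots (log2 difference -1.31 ± 0.17 SE, limma adjusted p = 0.00591). NPF3.1, known for gibberellin transport, had signals of 69.7 and 28.6 in nitrate roots, against 144 and 202 in nitrate shoots (log2 difference -1.59 ± 0.36 SE, limma adjusted p = 0.0322). NPF2.11 (GTR2), the partner of GTR1, had signals of 290.4 and 411 in nitrate roots, against 227 and 347 in nitrate shoots, and its arrays overlapped (log2 difference 0.28 ± 0.27 SE, limma adjusted p = 0.535). NPF5.13, NPF5.3 and NPF2.10 missed the threshold with either nitrate root array left out, and NPF3.1 with 1 of them left out (limma, adjusted p of up to 0.141). NPF3.1 also missed it with either nitrate shoot array left out (limma, adjusted p of up to 0.116). NPF3.1 (-2.06 to -1.12) spanned over 1.5 times in log2 difference across these omissions.

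**Figure D2:**
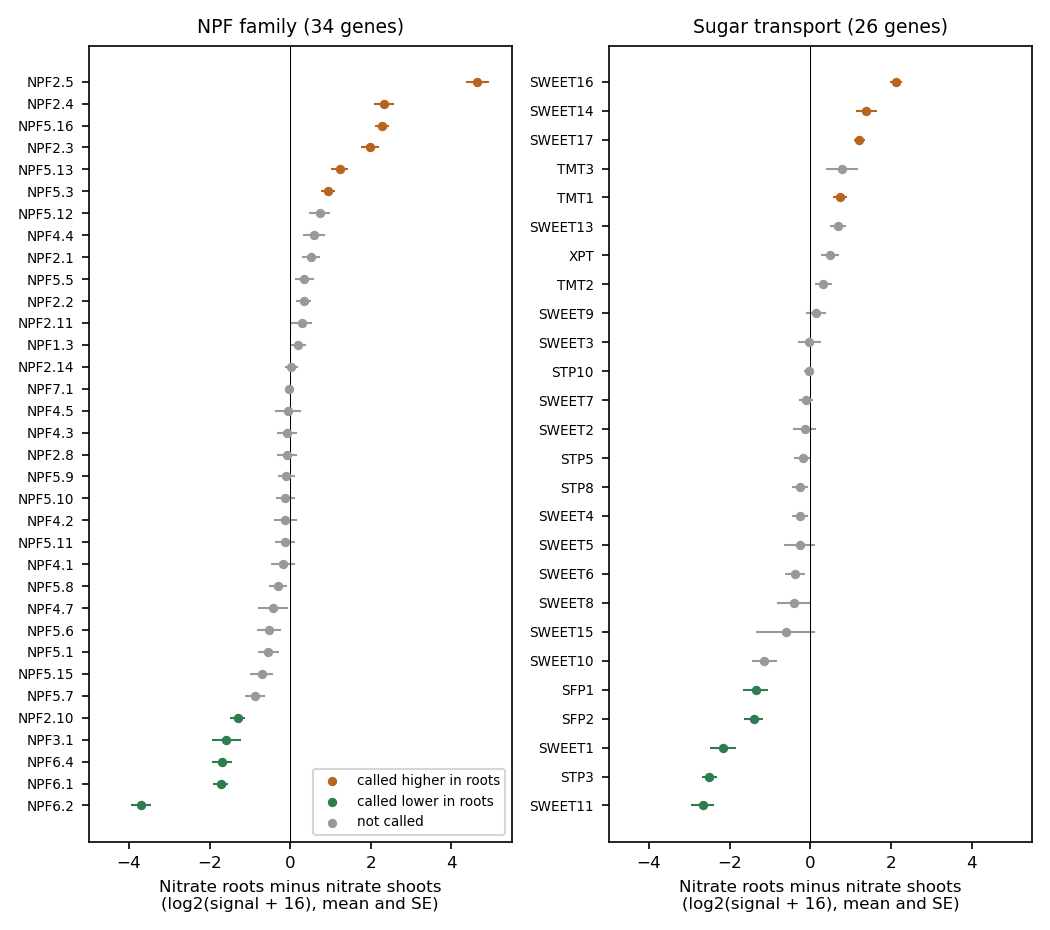
Difference between nitrate roots and nitrate shoots (log2(signal + 16), points) with its SE (bars) for 34 NPF genes and 26 sugar transport genes, sorted. In the NPF family 6 genes are called higher and 5 lower in roots, from NPF2.5 at 4.64 to NPF6.2 at -3.71. In sugar transport 4 are called higher and 5 lower.

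In nitrate and nitrite reduction 1 of 4 measured genes was higher in roots and 2 were lower. NITR2;1 and NITR2;2 encode membrane proteins of the HPP family that carry nitrite into plastids, and they were divided between the organs. NITR2;1 had signals of 61.0 and 51.5 in nitrate roots, against 137 and 169 in nitrate shoots (log2 difference -1.22 ± 0.19 SE, limma adjusted p = 0.00974). NITR2;2 had signals of 108 and 112 in nitrate roots, against 34.1 and 30.2 in nitrate shoots on the probe set used for it (log2 difference 1.39 ± 0.19 SE, limma adjusted p = 0.00602). On its other probe set it had signals of 113 and 95.6 in nitrate roots, against 2.00 and 2.71 in nitrate shoots (log2 difference 2.71 ± 0.21 SE, limma adjusted p = 0.00134), so both probe sets were higher in roots. SIRB, the ferrochelatase that makes siroheme, the cofactor of nitrite reductase, had signals of 121 and 112 in nitrate roots, against 209 and 208 in nitrate shoots (log2 difference -0.76 ± 0.15 SE, limma adjusted p = 0.0197). CNX6, of molybdenum cofactor synthesis, which nitrate reductase needs, had signals of 400.3 and 313 in nitrate roots, against 231 and 163 in nitrate shoots and did not pass, although its root arrays lay above its shoot arrays (log2 difference 0.81 ± 0.22 SE, limma adjusted p = 0.0578). NITR2;1, NITR2;2 and SIRB missed the threshold with either nitrate root array left out (limma, adjusted p of up to 0.195).

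In the oxidative branch of the pentose phosphate pathway, all 3 measured genes for 6-phosphogluconate dehydrogenase, which yields NADPH, were higher in roots. PGD1 had signals of 3230.1 and 2983 in nitrate roots, against 943 and 522 in nitrate shoots. PGD3 had signals of 2090.4 and 1715 in nitrate roots, against 940.0 and 716 in nitrate shoots. PGD2 had signals of 1259 and 1299 in nitrate roots, against 781 and 626 in nitrate shoots. No root array of the 3 genes overlapped a shoot array, and the log2 differences were 2.1 ± 0.31 (SE, limma adjusted p = 0.00790), 1.19 ± 0.22 (SE, limma adjusted p = 0.0167) and 0.86 ± 0.18 (SE, limma adjusted p = 0.0258) in that order. In the non-oxidative branch RPI4, a ribose-5-phosphate isomerase gene, was lower in roots with signals of 14 and 15.7 in nitrate roots, against 90.6 and 76.3 in nitrate shoots (log2 difference -1.69 ± 0.21 SE, limma adjusted p = 0.00505). The other 3 of 7 measured genes did not pass: the epimerase genes AT1G63290 (log2 difference 0.53 ± 0.15 SE, limma adjusted p = 0.0583) and AT3G01850 (log2 difference -0.65 ± 0.28 SE, limma adjusted p = 0.184) and the transaldolase gene TRA1 (log2 difference 0.01 ± 0.18 SE, limma adjusted p = 0.974). PGD1, PGD3, PGD2 and RPI4 missed the threshold with either nitrate root array left out (limma, adjusted p of up to 0.204).

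Of 7 measured regulators of nitrate and nitrogen signalling 4 were higher in roots and 1 was lower. HHO1, HHO2 and HHO3 belong to the GARP family of transcription factors that nitrate is known to induce. HHO1 had signals of 42.4 and 25.1 in nitrate roots, against 2.38 and 8.90 in nitrate shoots (log2 difference 1.19 ± 0.27 SE, limma adjusted p = 0.0326). HHO2 had signals of 538 and 415 in nitrate roots, against 276 and 199 in nitrate shoots (log2 difference 0.96 ± 0.22 SE, limma adjusted p = 0.0346). HHO3 had signals of 575 and 562 in nitrate roots, against 326 and 252 in nitrate shoots (log2 difference 0.95 ± 0.17 SE, limma adjusted p = 0.0166). HYH, a bZIP factor related to HY5, had signals of 347 and 201 in nitrate roots, against 101 and 44.3 in nitrate shoots (log2 difference 1.74 ± 0.40 SE, limma adjusted p = 0.0345). In these 4 genes the root arrays did not overlap the shoot arrays. NRG2, a positive regulator of nitrate signalling, ran the other way with signals of 224 and 212 in nitrate roots, against 341 and 474 in nitrate shoots (log2 difference -0.84 ± 0.20 SE, limma adjusted p = 0.0361). HHO5 (log2 difference 0.38 ± 0.19 SE, limma adjusted p = 0.239) and HHO6 (log2 difference 0.22 ± 0.19 SE, limma adjusted p = 0.505) did not pass. HHO1, HHO2, HHO3, HYH and NRG2 missed the threshold with either nitrate root array left out (limma, adjusted p of up to 0.226). HHO1, HHO2, HYH and NRG2 missed it without 1 of the nitrate shoot arrays (limma, adjusted p of up to 0.100). HHO1 (0.94 to 1.45), HHO2 (0.74 to 1.18), HYH (1.26 to 2.22) and NRG2 (-1.06 to -0.61) spanned over 1.5 times in log2 difference across these omissions.

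**Figure D3:**
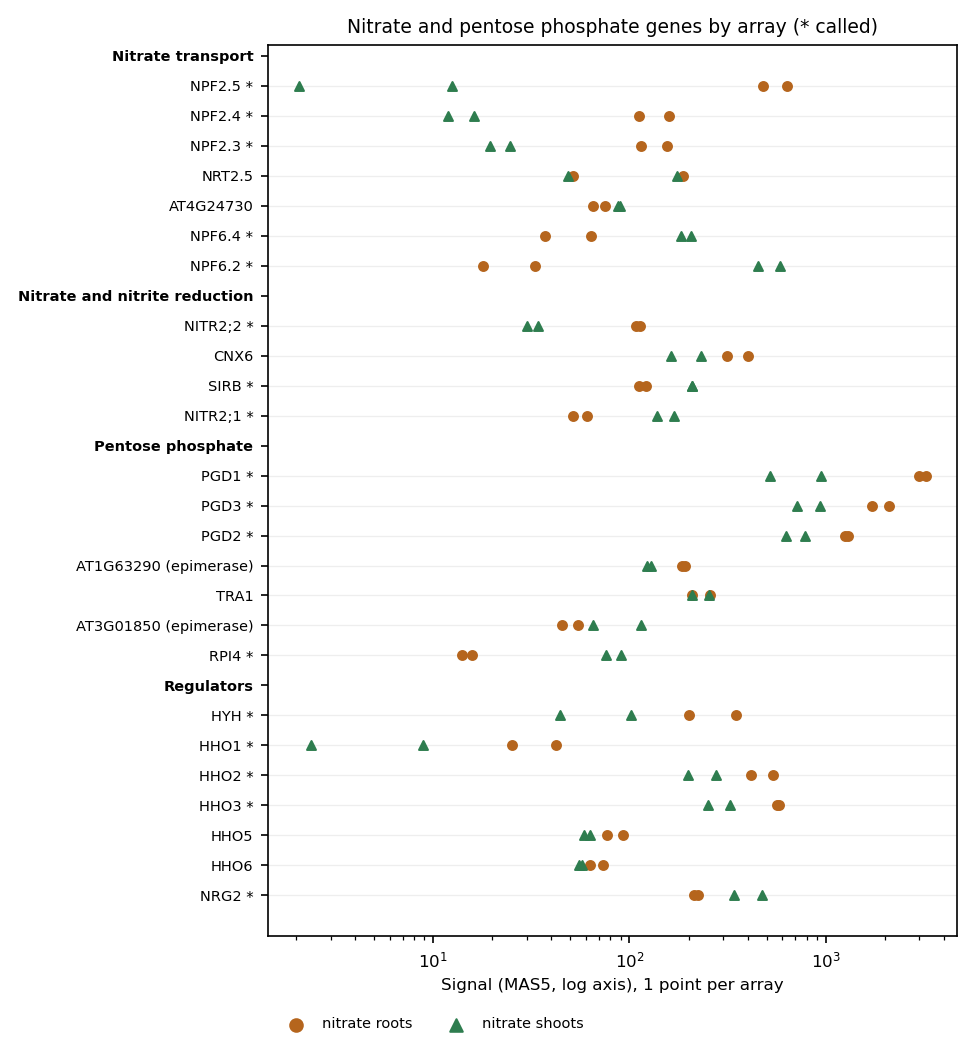
Signal on each of the 4 nitrate arrays (log axis, circles for roots, triangles for shoots) for every measured gene of nitrate transport, nitrate and nitrite reduction, the pentose phosphate pathway and the regulators. AT4G24730 is drawn with nitrate transport although its role there was not checked. An asterisk marks a called gene. NITR2;2 stands higher in roots and NITR2;1 lower, and the 3 PGD genes stand higher in roots.

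Of 22 measured genes of glycolysis 9 were higher in roots, 2 were lower and 11 did not pass, with a median log2 difference of 0.43. PGM (AT1G78050) and AT1G22170, both annotated as phosphoglycerate mutase genes, had the 2 largest root-side differences of the list. PGM had signals of 1819.8 and 1219 in nitrate roots, against 441 and 244 in nitrate shoots (log2 difference 2.1 ± 0.34 SE, limma adjusted p = 0.0105). AT1G22170 had signals of 297 and 342 in nitrate roots, against 56.9 and 54.3 in nitrate shoots (log2 difference 2.23 ± 0.16 SE, limma adjusted p = 0.00106). Genes for fructokinases, which bring fructose into glycolysis, were called on both sides or did not pass. AT2G31390 had signals of 2068 and 1936 in nitrate roots, against 626 and 334 in nitrate shoots (log2 difference 2.09 ± 0.31 SE, limma adjusted p = 0.00845). AT5G51830 had signals of 665 and 379.8 in nitrate roots, against 96.9 and 113 in nitrate shoots (log2 difference 2.1 ± 0.28 SE, limma adjusted p = 0.00610). AT1G66430 had signals of 98.0 and 92.7 in nitrate roots, against 166 and 300.4 in nitrate shoots and was lower in roots (log2 difference -1.11 ± 0.29 SE, limma adjusted p = 0.0480). Its call is weak, since it missed the threshold under 8 of the 15 alternatives run. The fructokinase genes AT1G06020, AT3G59480 and AT4G10260, of low signal in both organs, did not pass (log2 differences of -0.50, 0.46 and 0.23).

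All 3 measured subunit genes of the pyrophosphate-dependent phosphofructokinase, which acts in the cytosol, were higher in roots. PFPB1, for the beta subunit, had signals of 510.0 and 462 in nitrate roots, against 189 and 133 in nitrate shoots (log2 difference 1.52 ± 0.20 SE, limma adjusted p = 0.00568). PFPA2 and PFPA1, for alpha subunits, differed on the log2 scale by 1.16 ± 0.16 (SE, limma adjusted p = 0.00606) and 0.72 ± 0.14 (SE, limma adjusted p = 0.0216). The pyruvate kinase genes AT5G56350 and AT5G63680 differed on the log2 scale by 1.31 ± 0.16 (SE, limma adjusted p = 0.00414) and 0.64 ± 0.14 (SE, limma adjusted p = 0.0296). In the other direction NP-GAPDH, the cytosolic enzyme that makes NADPH from glyceraldehyde 3-phosphate without phosphorylation, had signals of 27.5 and 20.6 in nitrate roots, against 770.2 and 753 in nitrate shoots (log2 difference -4.28 ± 0.16 SE, limma adjusted p = 0.000425). GAPC2, the phosphorylating enzyme, had signals of 3086 and 3219 in nitrate roots, against 3083 and 2384 in nitrate shoots (log2 difference 0.22 ± 0.23 SE, limma adjusted p = 0.595). AT2G31390, AT1G66430, PFPA2, PFPA1 and AT5G63680 missed the threshold with either nitrate root array left out, and PGM, PFPB1 and AT5G56350 with 1 of them left out (limma, adjusted p of up to 0.263). AT2G31390 (1.65 to 2.53) and AT1G66430 (-1.51 to -0.71) spanned over 1.5 times in log2 difference across these omissions.

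For the supply of organic acids, 3 of 7 measured genes were higher in roots and 1 was lower. IDH6, a catalytic subunit of the mitochondrial NAD-dependent isocitrate dehydrogenase, had signals of 305 and 320.0 in nitrate roots, against 107 and 112 in nitrate shoots (log2 difference 1.39 ± 0.14 SE, limma adjusted p = 0.00273). IDH5, the other catalytic subunit, had signals of 1204 and 1168 in nitrate roots, against 815 and 670.1 in nitrate shoots (log2 difference 0.67 ± 0.17 SE, limma adjusted p = 0.0495). MDH (AT3G47520), the plastid NAD-dependent malate dehydrogenase, had signals of 1546 and 1207 in nitrate roots, against 792 and 726 in nitrate shoots (log2 difference 0.84 ± 0.19 SE, limma adjusted p = 0.0343). NADP-MDH, the chloroplast enzyme that exports reducing power as malate in the light, had signals of 42.1 and 28.8 in nitrate roots, against 637 and 689 in nitrate shoots (log2 difference -3.73 ± 0.19 SE, limma adjusted p = 0.000555). The NADP-dependent isocitrate dehydrogenases CICDH (log2 difference 0.39 ± 0.19 SE, limma adjusted p = 0.226), PICDH (log2 difference -0.13 ± 0.17 SE, limma adjusted p = 0.676) and CHLICDH (log2 difference -0.24 ± 0.14 SE, limma adjusted p = 0.310) did not pass. MDH and IDH5 missed the threshold with either nitrate root array left out (limma, adjusted p of up to 0.300). MDH also missed it with either nitrate shoot array left out, and IDH5 with 1 of these left out (limma, adjusted p of up to 0.0776). MDH (0.66 to 1.01) and IDH5 (0.53 to 0.81) spanned over 1.5 times in log2 difference across these omissions.

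A list of the citric acid cycle and citrate cleavage, added after the first results had been seen, had 5 of 16 genes higher in roots and 1 lower. The isocitrate and malate dehydrogenase genes among them are those given above. ACLA-2, a subunit of ATP-citrate lyase, had signals of 413 and 379 in nitrate roots, against 167 and 116 in nitrate shoots (log2 difference 1.41 ± 0.20 SE, limma adjusted p = 0.00749), while ACLA-1 (log2 difference 0.09 ± 0.17 SE, limma adjusted p = 0.772) and ACLA-3 (log2 difference 0.02 ± 0.17 SE, limma adjusted p = 0.944) did not pass. SDH1-1, a flavoprotein subunit of succinate dehydrogenase, differed on the log2 scale by 0.69 ± 0.14 (SE, limma adjusted p = 0.0213). PPDK, the pyruvate, orthophosphate dikinase, had signals of 4.84 and 11.7 in nitrate roots, against 503 and 349 in nitrate shoots (log2 difference -4.18 ± 0.26 SE, limma adjusted p = 0.000791). Of the 2 listed genes with more than 1 probe set, NITR2;2 and SDH2-1, the probe sets of SDH2-1 differed in sign, with log2 differences of 0.52 ± 0.14 on one and -0.10 ± 0.09 on the other (SE), and neither passed. ACLA-2 and SDH1-1 missed the threshold with either nitrate root array left out (limma, adjusted p of up to 0.202).

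Of 9 measured genes of sucrose and starch metabolism 2 were higher in roots and 5 were lower, with a median log2 difference of -1.34. APL3, a large subunit of ADP-glucose pyrophosphorylase, the first step of starch synthesis, had signals of 2.55 and 12.1 in nitrate roots, against 106 and 159 in nitrate shoots (log2 difference -2.68 ± 0.32 SE, limma adjusted p = 0.00400). SBE2.2, a starch branching enzyme, had signals of 90.4 and 71.8 in nitrate roots, against 296 and 409 in nitrate shoots (log2 difference -1.91 ± 0.21 SE, limma adjusted p = 0.00350). SPS4F, a sucrose phosphate synthase, had signals of 20.2 and 10.9 in nitrate roots, against 108 and 88.8 in nitrate shoots (log2 difference -1.87 ± 0.25 SE, limma adjusted p = 0.00595). PWD and DPE1, of starch breakdown, differed on the log2 scale by -1.87 ± 0.16 (SE, limma adjusted p = 0.00156) and -1.34 ± 0.19 (SE, limma adjusted p = 0.00738). The 2 genes higher in roots belong to the invertase family, whose members cleave sucrose or related sugars. AT1G62660, for a vacuolar invertase, had signals of 1149 and 1112 in nitrate roots, against 204 and 162 in nitrate shoots (log2 difference 2.54 ± 0.17 SE, limma adjusted p = 0.000889). CWINV6, of the cell wall group, had signals of 68.4 and 54.4 in nitrate roots, against 20.5 and 29.2 in nitrate shoots (log2 difference 0.93 ± 0.24 SE, limma adjusted p = 0.0470). CWINV6 and DPE1 missed the threshold with either nitrate root array left out, and SPS4F with 1 of them left out (limma, adjusted p of up to 0.303). CWINV6 missed it without 1 of the nitrate shoot arrays (limma, adjusted p of up to 0.0934).

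**Figure D4:**
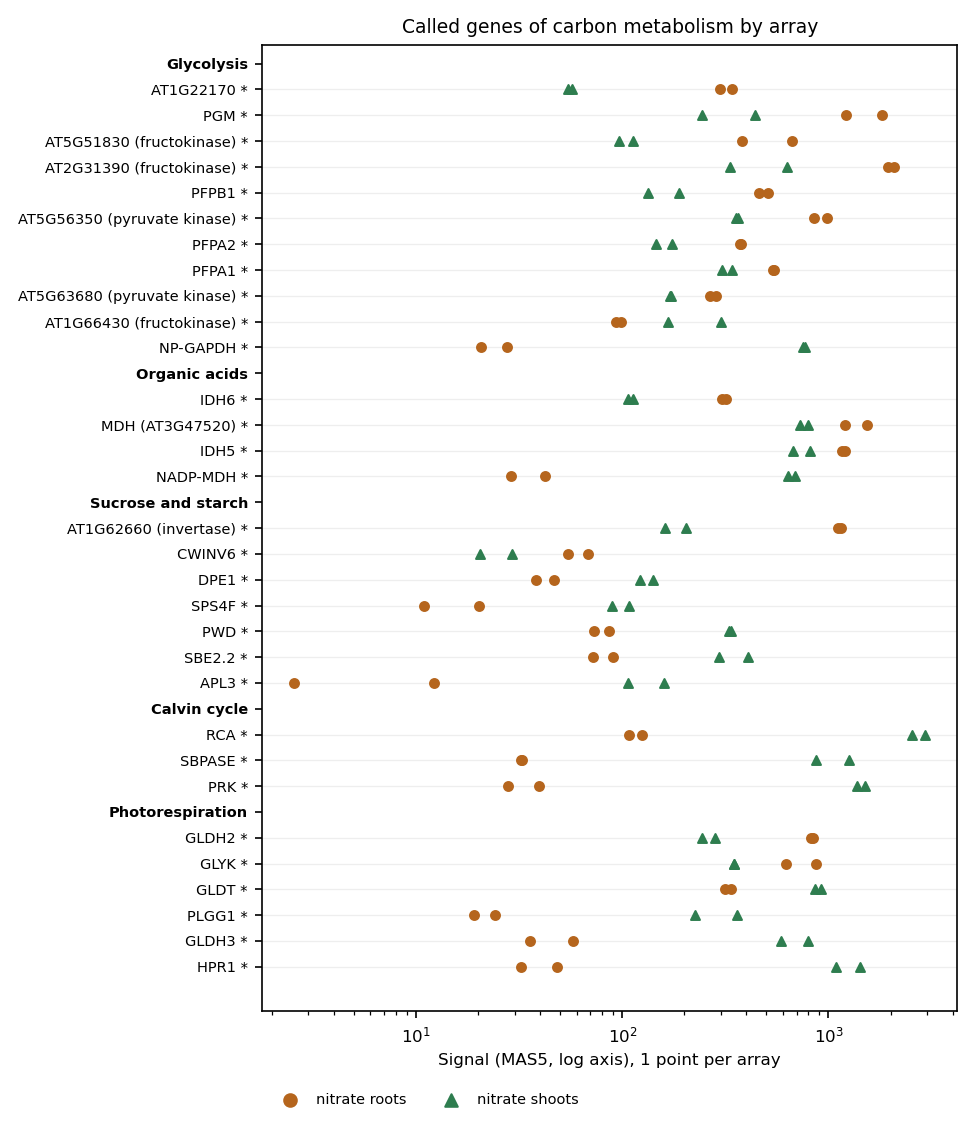
Signal on each of the 4 nitrate arrays (log axis, circles for roots, triangles for shoots) for the called genes of glycolysis, organic acid supply, sucrose and starch, the Calvin cycle and photorespiration. GLDH2 and GLYK stand higher in roots among photorespiratory genes, and GLDH3, HPR1, PLGG1 and GLDT stand lower.

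Sugar transporters also had calls on both sides. Of 26 measured genes 4 were higher in roots, 5 were lower and 17 did not pass, beside shares of 9.12% and 9.52% over all probe sets of 1 gene. SWEET16 and SWEET17, sugar carriers of the vacuolar membrane, were higher. SWEET16 had signals of 402 and 394 in nitrate roots, against 83.7 and 74.2 in nitrate shoots (log2 difference 2.1 ± 0.15 SE, limma adjusted p = 0.000969). SWEET17 had signals of 277 and 272 in nitrate roots, against 106 and 111 in nitrate shoots (log2 difference 1.22 ± 0.14 SE, limma adjusted p = 0.00393). SWEET14 and the vacuolar importer gene TMT1 differed on the log2 scale by 1.39 ± 0.25 (SE, limma adjusted p = 0.0159) and 0.73 ± 0.18 (SE, limma adjusted p = 0.0420). SWEET11, which exports sucrose for phloem loading in leaves, had signals of 212 and 124 in nitrate roots, against 1292 and 977 in nitrate shoots (log2 difference -2.67 ± 0.28 SE, limma adjusted p = 0.00294). STP3, a monosaccharide importer, had signals of 30.7 and 24.9 in nitrate roots, against 242 and 222 in nitrate shoots (log2 difference -2.50 ± 0.18 SE, limma adjusted p = 0.00105). SWEET1, a glucose carrier, had signals of 48.8 and 44.2 in nitrate roots, against 189 and 372 in nitrate shoots (log2 difference -2.18 ± 0.32 SE, limma adjusted p = 0.00835), and the ERD6-like genes SFP1 and SFP2 differed on the log2 scale by -1.36 and -1.4. SWEET14, SWEET17, TMT1, SWEET1, SFP1 and SFP2 missed the threshold with either nitrate root array left out (limma, adjusted p of up to 0.277). TMT1 missed it without 1 of the nitrate shoot arrays (limma, adjusted p of up to 0.0697). TMT1 (0.56 to 0.91), SWEET1 (-2.64 to -1.72) and SFP1 (-1.78 to -0.94) spanned over 1.5 times in log2 difference across these omissions.

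In a list of ERD6-like and polyol carriers added later, 3 of 12 genes were higher in roots and 3 lower. The shares over all probe sets of 1 gene were 9.12% and 9.52%. AT3G20460 had signals of 159.6 and 141 in nitrate roots, against 12.5 and 16.5 in nitrate shoots (log2 difference 2.44 ± 0.20 SE, limma adjusted p = 0.00159). AT5G18840 had signals of 320.1 and 254 in nitrate roots, against 49.8 and 34.2 in nitrate shoots (log2 difference 2.39 ± 0.22 SE, limma adjusted p = 0.00196). AT2G20780 was also higher (log2 difference 0.99 ± 0.22 SE, limma adjusted p = 0.0301). AT3G05400 was lower (log2 difference -1.74 ± 0.34 SE, limma adjusted p = 0.02), as were SFP1 and SFP2. AT2G20780 and AT3G05400 missed the threshold with either nitrate root array left out (limma, adjusted p of up to 0.194). AT3G05400 missed it without 1 of the nitrate shoot arrays (limma, adjusted p of up to 0.0511). AT2G20780 (0.72 to 1.25) and AT3G05400 (-2.10 to -1.39) spanned over 1.5 times in log2 difference across these omissions.

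Other transporter lists were also added later. Over all probe sets of 1 gene 9.12% were higher and 9.52% lower, so 1 or 2 calls in a list say little about it. In the amino acid carrier families AVT and LHT 5 of 16 genes were higher in roots and 1 was lower. AT1G47670 had signals of 317 and 309 in nitrate roots, against 87.3 and 90.7 in nitrate shoots (log2 difference 1.65 ± 0.14 SE, limma adjusted p = 0.00174). AT5G65990 had signals of 40.6 and 40.4 in nitrate roots, against 163 and 181 in nitrate shoots (log2 difference -1.73 ± 0.17 SE, limma adjusted p = 0.00242). AT1G25530, AT2G39130, AT1G48640 and AT5G02170 were higher, with log2 differences between 1.08 and 1.80. Of 10 carriers of carboxylates and phosphate none was higher and 2 were lower, ALMT5 with signals of 4.35 and 3.13 in nitrate roots, against 126 and 110.3 in nitrate shoots (log2 difference -2.76 ± 0.21 SE, limma adjusted p = 0.00124) and PHO1;H8 (log2 difference -1.88 ± 0.28 SE, limma adjusted p = 0.00816). Of 28 pumps, exchangers and channels none was higher and 2 were lower, the guard cell cation exchanger gene CHX20 (log2 difference -2.02 ± 0.19 SE, limma adjusted p = 0.00227) and GLR2.7, of low signal in both organs (log2 difference -1.35 ± 0.23 SE, limma adjusted p = 0.0139). With a pseudocount of 1 and of 64 the log2 difference was -4.10 and -0.89 for CHX20, and -3.19 and -0.52 for GLR2.7. In the UMAMIT and oligopeptide carrier lists no gene had a named probe set. AT2G39130, AT1G48640, AT5G02170, PHO1;H8 and GLR2.7 missed the threshold with either nitrate root array left out, and AT1G25530 with 1 of them left out (limma, adjusted p of up to 0.263). AT5G02170 missed it without 1 of the nitrate shoot arrays (limma, adjusted p of up to 0.0606). AT2G39130 (1.25 to 2.09), AT1G48640 (0.97 to 1.65), AT5G02170 (0.78 to 1.37) and GLR2.7 (-1.63 to -1.08) spanned over 1.5 times in log2 difference across these omissions.

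Name patterns searched in the gene records found few further genes, and 4 of 9 patterns found none. The sugar porter pattern gave 19 genes, 4 higher and 2 lower in roots, all 6 of them described above. The other patterns gave NRT2.5, the exchanger genes with CHX20 (0 higher and 1 lower of 6), the metal porter pattern (1 higher and 0 lower of 2) and AQI, which matched the aquaporin pattern by its synonym (log2 difference 0.64 ± 0.18 SE, limma adjusted p = 0.0632). The higher gene of the metal porter pattern was AT5G52050, of low signal in both organs (log2 difference 1.08 ± 0.15 SE, limma adjusted p = 0.00666). It was matched by a synonym, and its function was not checked. With a pseudocount of 1 and of 64 its log2 difference was 2.79 and 0.39.

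Genes of the Calvin cycle and the light reactions came next. Of 4 measured Calvin cycle genes 3 were lower in roots and none higher. PRK, for phosphoribulokinase, had signals of 39.4 and 27.8 in nitrate roots, against 1504 and 1369 in nitrate shoots (log2 difference -4.88 ± 0.18 SE, limma adjusted p = 0.000425). SBPASE, for sedoheptulose bisphosphatase, had signals of 32.3 and 32.5 in nitrate roots, against 1255 and 867 in nitrate shoots (log2 difference -4.45 ± 0.21 SE, limma adjusted p = 0.000524). PGK2, for phosphoglycerate kinase, had signals of 363 and 367 in nitrate roots, against 464 and 474 in nitrate shoots and did not pass (log2 difference -0.35 ± 0.14 SE, limma adjusted p = 0.146). Of 18 nuclear photosynthesis genes, a list added after some members had been seen among the largest differences, 17 were lower in roots. The exception was ATPC2, a second gamma subunit of the ATP synthase (log2 difference 0.08 ± 0.36 SE, limma adjusted p = 0.912), whereas ATPC1 had signals of 73.8 and 64.6 in nitrate roots, against 2009 and 1687 in nitrate shoots (log2 difference -4.45 ± 0.16 SE, limma adjusted p = 0.000425).

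Tetrapyrrole synthesis, also added later, had 7 of 12 genes lower in roots and none higher. PORB, for protochlorophyllide oxidoreductase, had signals of 58.5 and 37.3 in nitrate roots, against 1567 and 1442 in nitrate shoots (log2 difference -4.59 ± 0.20 SE, limma adjusted p = 0.000524). CHLM, for the methyltransferase of the chlorophyll branch, had signals of 53.7 and 60.8 in nitrate roots, against 695 and 608 in nitrate shoots (log2 difference -3.19 ± 0.16 SE, limma adjusted p = 0.000545). CHLI2, of the magnesium chelatase, and HEME2, a uroporphyrinogen decarboxylase, differed on the log2 scale by -2.22 ± 0.21 (SE, limma adjusted p = 0.00231) and -2.18 ± 0.25 (SE, limma adjusted p = 0.00384). Among the lower ones SIRB, described with nitrite reduction, had the difference nearest to 0.

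Genes of photorespiration went both ways. Of 8 measured genes 2 were higher in roots and 4 were lower. GLDH2 and GLDH3 both encode the H protein of glycine decarboxylase. GLDH2 had signals of 839 and 825 in nitrate roots, against 283 and 243 in nitrate shoots (log2 difference 1.61 ± 0.15 SE, limma adjusted p = 0.00218). GLDH3 had signals of 57.8 and 35.6 in nitrate roots, against 794 and 591 in nitrate shoots (log2 difference -3.51 ± 0.25 SE, limma adjusted p = 0.00103). HPR1, the peroxisomal hydroxypyruvate reductase, had signals of 48.0 and 32.2 in nitrate roots, against 1428 and 1088 in nitrate shoots (log2 difference -4.51 ± 0.22 SE, limma adjusted p = 0.000545), whereas HPR2, the cytosolic one, had signals of 274 and 276 in nitrate roots, against 325 and 299.5 in nitrate shoots (log2 difference -0.17 ± 0.14 SE, limma adjusted p = 0.468). PLGG1, the glycolate and glycerate carrier of the chloroplast, and GLDT, the T protein of glycine decarboxylase, differed on the log2 scale by -3.01 ± 0.26 (SE, limma adjusted p = 0.00177) and -1.4 ± 0.15 (SE, limma adjusted p = 0.00285). GLYK, which phosphorylates glycerate in the last step, had signals of 865 and 625 in nitrate roots, against 348 and 348 in nitrate shoots (log2 difference 1.05 ± 0.20 SE, limma adjusted p = 0.0182). GLYK missed the threshold with either nitrate root array left out, and GLDT with 1 of them left out (limma, adjusted p of up to 0.141). GLYK also missed it with either nitrate shoot array left out (limma, adjusted p of up to 0.0549). GLYK (0.82 to 1.28) spanned over 1.5 times in log2 difference across these omissions.

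Sulfate assimilation, whose sulfite reductase shares siroheme with nitrite reductase, had 3 measured genes. The ATP sulfurylase genes APS4 and APS3 were divided. APS4 had signals of 1656 and 1649 in nitrate roots, against 650.1 and 496 in nitrate shoots (log2 difference 1.52 ± 0.19 SE, limma adjusted p = 0.00516). APS3 had signals of 69.9 and 72.6 in nitrate roots, against 229 and 148 in nitrate shoots (log2 difference -1.20 ± 0.23 SE, limma adjusted p = 0.0204). SIR, for sulfite reductase, had signals of 460.4 and 432 in nitrate roots, against 494 and 498 in nitrate shoots and did not pass (log2 difference -0.15 ± 0.14 SE, limma adjusted p = 0.539). APS4 and APS3 missed the threshold with either nitrate root array left out (limma, adjusted p of up to 0.134). APS3 (-1.49 to -0.91) spanned over 1.5 times in log2 difference across these omissions.

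Whether an organ difference in nitrate differed from the one in KCl was asked with the KCl arrays. The same test on the 4 KCl arrays called 4536 probe sets (19.9%), 2149 higher in roots (9.45%) and 2387 lower (10.5%). Of the 4998 calls in nitrate, 3743 were called on the same side in KCl, 2 on the opposite side and 1253 were not called there. Of the 65 listed genes called in nitrate, organ markers included, 46 were called on the same side in KCl. Another 18 were not called there and 1, GLYK, was called on the opposite side. A call in one treatment and not in the other does not show a difference, so the difference itself was tested over all 8 arrays. It passed for 3 probe sets of 22746 (0.0132%). An unadjusted p under 0.05 was reached by 770, no more than would be expected if no probe set had changed.

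The 3 belonged to GLYK, NITR2;2 and AT2G48080. GLYK had signals of 72.2 and 61.4 in KCl roots, against 268 and 253 in KCl shoots, so that its organ difference on the log2 scale was 1.05 in nitrate and -1.74 in KCl (limma, adjusted p = 0.00203 in KCl). The nitrate difference minus the KCl difference was 2.79 ± 0.25 (SE, limma adjusted p = 0.0388). The other probe set of NITR2;2 had signals of 1.39 and 1.91 in KCl roots, against 1.16 and 0.665 in KCl shoots, and the difference changed by 2.65 ± 0.23 (SE, limma adjusted p = 0.0388). On the probe set used for NITR2;2 elsewhere the change was 0.71 and did not pass (limma, adjusted p = 1.00). AT2G48080 had signals of 894 and 851 in nitrate roots, against 50.1 and 61.3 in nitrate shoots. In KCl it had signals of 50.8 and 43.6 in roots, against 48.9 and 34.2 in shoots, and the difference changed by 3.49 ± 0.26 (SE, limma adjusted p = 0.0295). With a pseudocount of 1 and of 64 the change on the other probe set of NITR2;2 was 4.5 and 1.33, and it missed the threshold with 1 (limma, adjusted p = 0.462). GLYK missed it with 64 (limma, adjusted p = 0.0519). Over all alternatives, array omissions included, GLYK missed it under 10 of 13 and the other probe set of NITR2;2 under 10 of 12. AT2G48080 missed it under 8 of 13, all of them array omissions. With any 1 of the 8 arrays left out none of the 3 passed, and the count of calls was then 0.

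The other 7 of the 10 smallest p-values did not pass (limma, adjusted p from 0.165 to 0.214). AT5G58900 had an organ difference of 1.64 in nitrate and -0.93 in KCl, both called, and AT4G02920 had 0.24 in nitrate and -1.73 in KCl, called only in KCl. AT4G32950 and AT3G52360 had differences of 2.85 and 2.74 in nitrate, set beside 0.70 and 1.2 in KCl. The remaining 3 probe sets have no gene in the table.

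The organ differences of 9 listed genes, picked after their values were seen, are set side by side for both treatments. For NPF2.5, NPF6.2, PRK and SWEET16 the organ difference was 4.64, -3.71, -4.88 and 2.1 in nitrate, and 5.04, -3.33, -4.62 and 2.1 in KCl. For AT5G51830 it was 2.1 in nitrate and 0.02 in KCl, for AT1G22170 2.23 and 0.75, for HHO1 1.19 and 0.12, for CNX6 0.81 and -0.15, and for NITR2;1 -1.22 and -2.36. NITR2;1 had signals of 3.87 and 3.35 in KCl roots, against 83.5 and 86.4 in KCl shoots. None of the 9 changes passed over all probe sets.

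**Figure D5:**
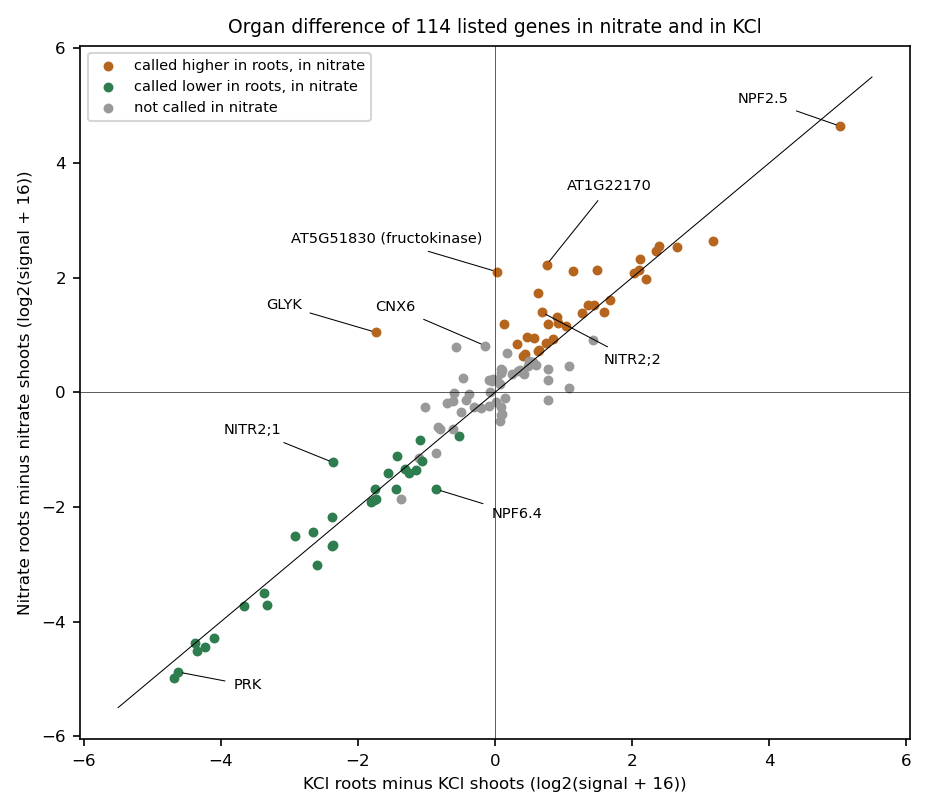
Organ difference in nitrate (vertical axis) against that in KCl (horizontal axis), both roots minus shoots on log2(signal + 16), for the 114 measured genes of the first lists. The organ markers are among these genes. The line marks equal differences. Most genes lie near the line, and GLYK lies on opposite sides of 0, at 1.05 in nitrate and -1.74 in KCl.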

How the data were processed

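Expression was measured on Affymetrix ATH1 arrays, 1 per sample. The deposited values are linear signal intensities that the authors made with MAS5 and GCOS, per the submitters' processing notes. Versions were not given in the sources used here. The trimmed mean signal was 100.0 on every array. The arrays carry no read depth, and their number, 2 a group, limits the precision.

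Of 22810 probe sets 64 controls were removed and 22746 tested. GEO's platform table gave 1 gene for 13513, several for 503 and none for 8730. Of the 13513, 13436 matched a TAIR10.1 record of RefSeq. No detection calls were used. Signals were compared between arrays within a probe set. Levels of different probe sets entered only the choice of 1 probe set for a gene, the filter on low signal and the sums over markers.

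Organ differences are roots minus shoots in log2(signal + 16), tested with limma 3.58.1 in R 4.3.3 (lmFit, eBayes with an intensity trend, Benjamini-Hochberg adjustment over all probe sets, two-sided, adjusted p under 0.05) on the 4 nitrate arrays. The change against KCl was the interaction over all 8 arrays. The fits were also run on simulated data with independent errors and equal spread in both organs. The arrays differed in spread between organs, so that run lends the calls no support. Figures were drawn with matplotlib 3.10.9.

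The members and lists were chosen with earlier results of these data known. There were 19 lists, 10 lists added after first values were seen, and 9 name patterns. The genes to name were every measured member of the lists of nitrate transport, nitrate and nitrite reduction and the pentose phosphate pathway, up to 4 called members in each direction of the others, the 10 largest differences in each direction over the array and the 10 smallest p-values for the change against KCl. The same rule was applied to the added lists, and further members were named after their values were seen. A gene with several probe sets is given by the one with the highest mean signal. Alternatives covered the pseudocount, normalization, filter, arrays in the fit, moderation, threshold, replicate block and each array left out.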

Additional observations from a re-analysis of the deposited data

Results flagged for a closer look

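The organ difference in nitrate and the organ difference in KCl differed, by limma's interaction test over all 8 arrays, for 3 probe sets. For AT2G48080 the nitrate difference minus the KCl difference was 3.49 on the log2 scale (limma, adjusted p = 0.0295). For GLYK (AT1G80380) it was 2.79 (limma, adjusted p = 0.0388), and for a second probe set of NITR2;2 (AT3G47980) it was 2.65 (limma, adjusted p = 0.0388). Over the alternatives the adjusted p ran from 0.00771 to 0.402 for AT2G48080, from 0.0169 to 0.589 for GLYK and from 0.0342 to 0.589 for NITR2;2. None of the 3 passed once any single array of the 8 was dropped, while the change stayed between 3.3 and 3.68, between 2.56 and 3.02 and between 2.54 and 2.75 in that order. With a pseudocount of 1 and of 64 the change was 4.5 and 1.33 for NITR2;2, whose signals on this probe set were under 3 in the other 3 groups. Groups of 2 arrays are too small to test for a sample that stands apart.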

How the results depend on the processing

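Of the 4998 calls, 2599 passed at an adjusted p under 0.01, of which 1111 were higher and 1488 lower in nitrate roots. With 1 nitrate array left out the count ran from 1991 to 5219, with 844 to 2434 higher and 1147 to 2905 lower, and the calls among listed genes ran from 31 to 64, against 65 with all arrays. The number of calls among genes named by the rule ran from 63 to 98, against 102, and can include genes gained. The lowest counts came without a root array. That leaves 1 root array, which is assumed to vary like the shoot arrays. Under the other alternatives the count of calls stayed within 1.5 times of 4998. With the replicate block it was 5941, with 70 listed genes called, but the labels do not pair the samples. The log2 difference between the first and the second array correlated at 0.18 between nitrate roots and nitrate shoots, over all 22746 probe sets. Quantile normalization moved the share of calls that were higher in roots to 49.8%, against 46.7%, and the median difference to 0.05, against 0.01. Of all 113 named genes that were called, 62 passed under every alternative and 51 missed under at least 1, 47 of these only with an array left out or at the stricter threshold. The misses of AT1G66430 (8 of 15 alternatives), IDH5 and TMT1 (7 of 15 each) and NRG2 (6 of 15) were not confined to those settings. Of the 23 named genes that were not called, 6 passed under at least 1 alternative: CNX6 under 5 of 15, AQI under 4, SDH2-1 and AT1G63290 under 2 each, and ICL and AT3G01850 under 1 each. The lowest adjusted p was 0.00828 for CNX6, with the replicate block, and 0.0227 for ICL, without a shoot array (limma). Another pseudocount moved the log2 difference of 29 called named genes by over 1.5 times, since it changes how far low signals are compressed. Sign changes were found only among named genes that were not called. Under quantile normalization the difference was -0.000604 for TRA1, -0.0228 for ACLA-1 and -0.00518 for ACLA-3. With an array left out it ran from -4.03 to 0.32 for ICL, from -0.71 to 0.88 for NRT2.5, from -0.13 to 0.16 for TRA1, from -0.00383 to 0.57 for NPF2.11, from -0.30 to 0.46 for ATPC2, from -0.0142 to 0.20 for ACLA-1 and from -0.13 to 0.18 for ACLA-3. The cause was not tested. The count for the change against KCl was 3, between 2 and 4 under the other alternatives, and 0 without any 1 of the 8 arrays, where 770 probe sets had an unadjusted p under 0.05 with all arrays. Low signals limit what can be read: 472 called probe sets were under a mean of 32.9 in both organs.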
